A study of Homo sapiens with 7 samples.

Results

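The acinar enzyme and acinar factor genes are 10 genes of the exocrine pancreas: the enzyme genes PRSS1, CPA1, CPB1, CTRB1, CEL, PNLIP and CELA3A, and the transcription factor genes PTF1A, RBPJL and BHLHA15. They were chosen by name out of 20033 protein-coding genes, by a rule that uses no measured value of its own, although earlier results of these data were known when they were chosen. For each gene, the intervals of H3K4me1 enrichment that reached into the gene body (GENCODE release 44, genome build hg38) or the 20 kb to either side were counted, the bases they covered were summed, and the interval nearest to the 5′ end of the gene record was found. The question was whether genes of the acinar cell carried H3K4me1 in a pancreatic cancer line, and whether more intervals were found near them after knockdown of KMT2D.

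ChIP-seq was performed in SW1990, an established human pancreatic cancer cell line, for H3K4me1, KMT2D and EBF2. Negative control cells (NC) were set beside KMT2D knockdown cells (KMT2D-KD). The paper describes SW1990 lines with stable KMT2D knockdown and also lists siRNAs against KMT2D. Its ChIP-seq methods do not state which kind of knockdown the cells carried. The 7 samples were 6 ChIP libraries, 1 for each target and condition, and 1 input library whose condition the labels did not give. With 1 library per group there was no replicate check and no test between NC and KMT2D-KD. How far the knockdown lowered KMT2D was not analysed here. Each deposited list gave intervals, which are the regions called by the authors as enriched in a ChIP library. How the input was used in calling was not examined here.

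Acinar cells make up most of the exocrine pancreas and secrete the proteases, lipases and other enzymes that digest food in the gut, most proteases as inactive precursors. Their gene programme is driven by the PTF1 complex, in which the basic helix-loop-helix protein PTF1A, a common E-box partner and RBPJL (or its paralogue RBPJ) bind an E-box and a neighbouring RBPJ site, and by BHLHA15 (MIST1), which shapes the secretory machinery. H3K4me1 is the mark of enhancers and promoter flanks, KMT2D is one of the methyltransferases that place it, and ductal cells, the other main lineage of the exocrine pancreas, express little of the acinar enzyme genes.

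The promoters of these genes carry the E-box letters that PTF1 is known to bind, and they are shown because H3K4me1 was measured around them. RefSeq (GRCh38.p14) gave a promoter for 8 of the 10 genes, all on the plus strand, and not for PTF1A or CTRB1. CACCTG, an E-box of the general form CANNTG, occurred on either strand in the promoters of 7 of the 8 genes (87.5%), against 20.6% of 35116 promoters of the same length, 250 bases before to 50 bases after the start. TGGGAA, the core of the RBPJ site, occurred in the promoters of PRSS1 and RBPJL (25%, against 24% of all promoters), and these 2 also held CACCTG, a combination found in 5.39% of all promoters. PNLIP was the promoter without CACCTG, and it held no CANNTG of any kind. The 250 bases before the start are printed 5′ to 3′ for PRSS1 (chr7:142749222-142749471, plus strand) with both sets of letters, for CEL (chr9:133061731-133061980, plus strand) and CELA3A (chr1:22001407-22001656, plus strand) with 3 copies of CACCTG each, and for PNLIP (chr10:116545681-116545930, plus strand) as the exception, with CACCTG and TGGGAA on either strand in capitals. A match is a description of the letters and not of binding.
PRSS1: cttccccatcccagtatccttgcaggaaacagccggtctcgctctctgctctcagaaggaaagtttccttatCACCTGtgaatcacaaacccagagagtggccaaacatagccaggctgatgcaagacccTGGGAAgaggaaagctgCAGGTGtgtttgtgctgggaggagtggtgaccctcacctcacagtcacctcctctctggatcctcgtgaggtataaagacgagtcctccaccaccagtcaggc
CEL: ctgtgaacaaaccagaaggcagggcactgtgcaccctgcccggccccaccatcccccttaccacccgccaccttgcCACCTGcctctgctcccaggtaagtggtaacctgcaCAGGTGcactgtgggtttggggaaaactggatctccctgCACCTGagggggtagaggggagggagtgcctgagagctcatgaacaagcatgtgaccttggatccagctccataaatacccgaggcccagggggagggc
CELA3A: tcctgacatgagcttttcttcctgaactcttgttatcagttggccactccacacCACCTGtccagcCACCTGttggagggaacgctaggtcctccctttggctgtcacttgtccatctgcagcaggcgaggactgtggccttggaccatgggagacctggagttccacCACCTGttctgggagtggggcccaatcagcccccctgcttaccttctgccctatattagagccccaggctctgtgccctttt
PNLIP: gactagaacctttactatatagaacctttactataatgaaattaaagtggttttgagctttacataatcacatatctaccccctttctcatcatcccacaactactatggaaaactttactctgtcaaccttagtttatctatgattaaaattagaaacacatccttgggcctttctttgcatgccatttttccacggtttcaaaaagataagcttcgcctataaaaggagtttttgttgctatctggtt

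In NC cells, 7 of the 10 acinar genes (70.0%, exact 95% interval 34.8 to 93.3%) had at least 1 H3K4me1 interval in their window, and 63.2% of all protein-coding genes did. In KMT2D-KD cells the same 7 genes (70.0%) had one, and 74.4% of all genes did. Among the 13826 genes whose windows were as long as those of the acinar genes (41.9 to 109 kb), the shares were 59.5% in NC and 72.4% in KMT2D-KD. The 7 genes were CPA1, CPB1, CTRB1, CEL, CELA3A, RBPJL and BHLHA15. No interval was found in either list near PRSS1, PNLIP or PTF1A, as for 22.7% of all genes, and none within 50 kb of their bodies either. The exact intervals given for shares cover counting error only.

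Most of the intervals lay outside the acinar genes themselves. Of the 10 windows, 9 held at least part of another protein-coding gene, the window of PNLIP being the exception, and 9 of 18 intervals in NC and 12 of 25 in KMT2D-KD lay in the body of such a neighbour. Another 7 in NC and 10 in KMT2D-KD lay between genes. The remaining 2 in NC and 3 in KMT2D-KD lay in the body of the acinar gene itself, in every case CPB1. The CPB1 gene record begins with a distal transcript, and in each list the first of these lay upstream of the agreed reference transcript. Without the intervals in a neighbour's body, 4 of the 10 genes kept one in either list (CPA1, CPB1, CEL and RBPJL), while CTRB1, CELA3A and BHLHA15 kept none. Under the same exclusion 49.2% of all genes kept one in NC and 60.6% in KMT2D-KD. No summit, the base of highest enrichment in an interval, lay in an exon of a protein-coding gene.

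**Figure D1:**
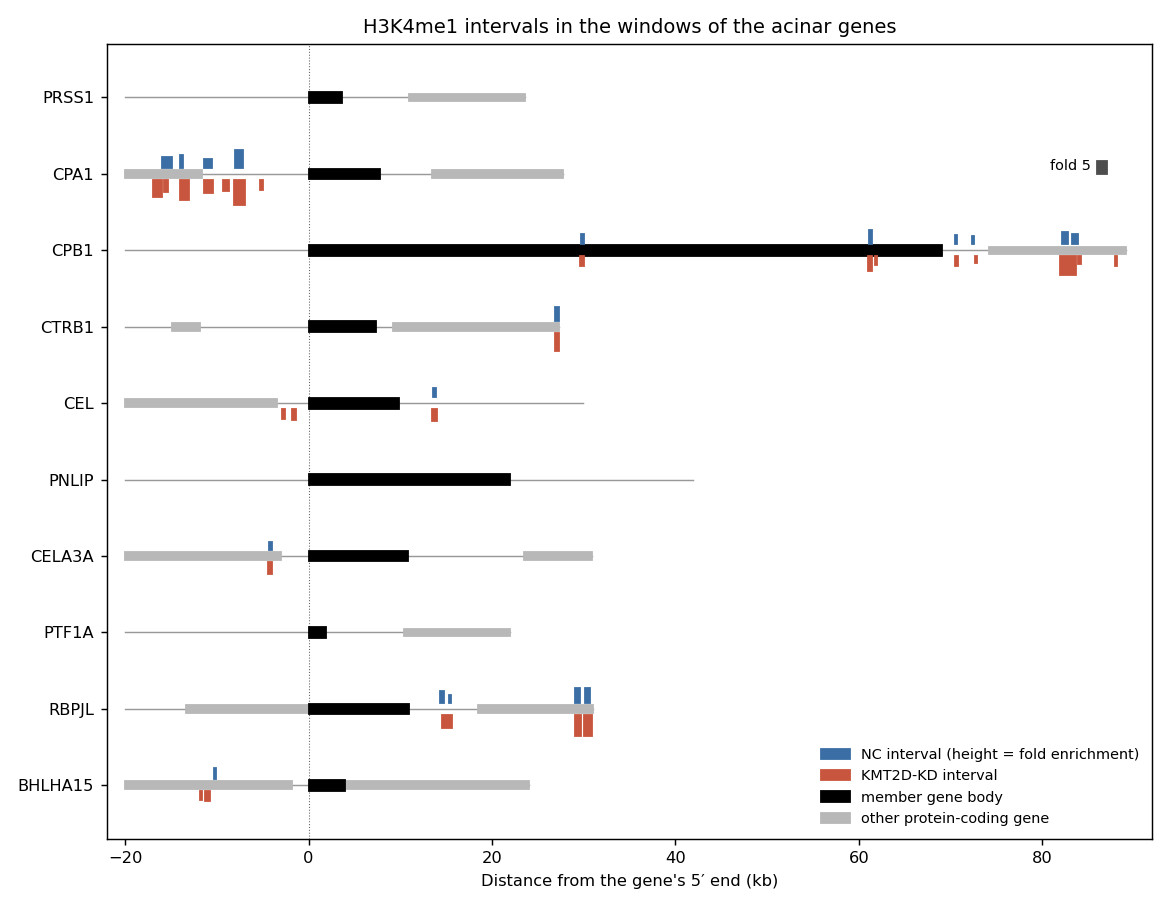
H3K4me1 intervals around the 10 acinar genes, drawn to scale against the distance from each 5′ end in kb. Bars above each line are NC intervals and bars below are KMT2D-KD intervals, with height proportional to fold enrichment at the summit; black blocks are the genes themselves and grey blocks other protein-coding genes. The lines of PRSS1, PNLIP and PTF1A are empty, and the tallest bars stand upstream of CPA1.

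No interval lay close to a 5′ end. Within 1000 bases of the 5′ end, 0 of the 10 genes had an H3K4me1 interval in NC and 0 of 10 in KMT2D-KD, where 6.43% and 11.9% of all genes had one. With 10 genes, a count of 0 allows a share of up to 30.0%, so a share like that of all genes was not excluded at this number. In the gene body, 1 of the 10 genes (CPB1) had an interval in each list, against 42.2% of all gene bodies in NC and 52.7% in KMT2D-KD. The bodies of the acinar genes were short, with a median of 8.83 kb against 27.5 kb for all genes, and among the genes with windows as long as theirs the share with an interval in the body was 34.2% in NC and 46.4% in KMT2D-KD.

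The depth behind these intervals was low. The deposited fold enrichment and p-value of an interval could be solved for a whole number of DNA fragments at its summit and for the background expected there. Solved in this way for every 20th interval of each list, 100% of 3243 intervals in NC and 100% of 4607 in KMT2D-KD gave a whole number within 0.001 on the −log10 p scale. The median interval had 12 fragments at its summit in both lists, and the weakest of those solved had 8 in NC and 7 in KMT2D-KD. Intervals of the acinar genes had 11 to 18 fragments at the summit in NC and 8 to 25 in KMT2D-KD, with a median of 14 in both. The lowest background, the level expected from the genome-wide mean, was 1.85 fragments in NC and 1.64 in KMT2D-KD. Enrichment with fewer fragments at the summit than the weakest intervals was not detectable, and a gene without an interval was not shown to lack the mark.

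Among the enzyme genes, 5 of 7 had an interval in each list, 13 intervals being counted in the NC list and 20 in the KMT2D-KD list. CPA1 (chr7:130380339-130388114), which encodes the precursor of carboxypeptidase A1, stood out by strength. Its window had 4 intervals in NC, covering 3.13 kb, and 7 in KMT2D-KD, covering 5.6 kb, and all of them lay upstream of the gene. The strongest in NC (chr7:130372365-130373235, between CPA5 and CPA1) reached a fold enrichment of 6.67 from 18 fragments, with a −log10 q of 8.75 that exceeded 95.2% of the NC list. Its counterpart in KMT2D-KD (chr7:130372181-130373410) reached a fold of 9.49 from 24 fragments over a background of 1.64, with a −log10 q of 16.2 that exceeded 98.7% of that list. The summits lay 7533 and 7366 bases upstream of the 5′ end of CPA1, the nearest 5′ end to each. The interval nearest to the 5′ end was this same one in NC, at 7104 bases. In KMT2D-KD a weaker one (chr7:130375000-130375346, fold 3.79, 9 fragments) lay nearer, at 4993 bases.

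The 101 bases around the strongest CPA1 summits are shown because they carry the highest enrichment of any acinar gene. The sequences are the plus strand of hg38 at chr7:130372756-130372856 in NC and chr7:130372923-130373023 in KMT2D-KD. CACCTG and TGGGAA would stand in capitals on either strand, and neither CPA1 summit held them. In the 101 bases around a summit CACCTG was found in 3 of 18 acinar gene intervals in NC (16.7%, against 9.19% of every 20th interval of the list) and in 3 of 25 in KMT2D-KD (12.0%, against 11.1%). TGGGAA was found in 11.1% against 10.7% in NC and in 12.0% against 9.42% in KMT2D-KD.
CPA1 summit in NC: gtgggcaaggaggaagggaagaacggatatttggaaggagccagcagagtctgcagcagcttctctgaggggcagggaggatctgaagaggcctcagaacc
CPA1 summit in KMT2D-KD: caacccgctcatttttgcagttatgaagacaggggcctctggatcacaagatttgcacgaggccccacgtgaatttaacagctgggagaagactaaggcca

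CEL (chr9:133061981-133071861) encodes the bile salt-dependent carboxyl ester lipase, and intervals near its 5′ end were found in KMT2D-KD and not in NC. NC had 1 interval in the window (chr9:133075573-133075927), 13592 bases downstream of the 5′ end, with a fold of 3.4. KMT2D-KD had 3: the same place with a fold of 4.49 (chr9:133075487-133075945), and 2 upstream of the gene. The nearer of these (chr9:133060188-133060617) ended 1364 bases before the 5′ end and had a fold of 4.11, a −log10 q of 4.52 and 15 fragments. The other (chr9:133059107-133059437) had a fold of 3.66 and 13 fragments. Both were modest within their list, exceeding 59.2% and 38.2% of it by −log10 q. They also lay in sequence with copies elsewhere. Of the words of 31 bases in these intervals, 57.8% and 74.8% occurred once in the genome, and within 1 kb of the CEL 5′ end 32.1% did, the least of the 10 genes. How reads that match several places were treated was not stated, and its part in the result was not tested.

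CPB1 (chr3:148791102-148860187), which encodes the precursor of carboxypeptidase B1, had the longest window and the highest count of intervals as deposited. There were 6 in NC, covering 2.43 kb, and 8 in KMT2D-KD, covering 3.71 kb. Per 100 kb of window its 5.5 intervals in NC were below the 8.37 of CPA1 and the 7.85 of RBPJL, and with both lists cut to the same length it had 3 in KMT2D-KD, below the 6 of CPA1. The strongest in NC (chr3:148852185-148852476, fold 5.23, −log10 q of 5.81) lay in the gene body. The strongest in KMT2D-KD (chr3:148872979-148874734, fold 6.98, −log10 q of 11.0) lay in the body of CPA3, the neighbouring mast cell carboxypeptidase gene, over a place that had 2 separate intervals in NC. The interval nearest to the 5′ end of the gene record was 29690 bases from it in NC (fold 3.76) and 29574 in KMT2D-KD (fold 3.53). The record begins with a distal transcript, and from the start of the MANE Select transcript, the agreed reference transcript, the distances were 6682 and 6667 bases, upstream of that start.

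CTRB1 (chr16:75218988-75226338) encodes chymotrypsinogen B1. It had 1 interval in each list (chr16:75245903-75246400 in NC and chr16:75245869-75246438 in KMT2D-KD), and that lay at the downstream edge of the window, 26915 and 26881 bases from the 5′ end, in the body of BCAR1, an adaptor protein gene expressed in many cell types. Its fold was 5.27 in NC and 6.83 in KMT2D-KD, from 14 and 17 fragments. It was outside the window when the window was drawn around the shorter MANE Select transcript. Of the words of 31 bases in the part inside the window, 71.2% in NC and 73.4% in KMT2D-KD occurred once in the genome.

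CELA3A (chr1:22001657-22012542), an elastase-family protease gene, had 1 interval in the body of its paralogue CELA3B, lying 3990 (NC) or 3986 (KMT2D-KD) bases upstream of its own 5′ end. The fold was 2.94 in NC (chr1:21997344-21997667, −log10 q of 1.83, 11 fragments) and 4.52 in KMT2D-KD (chr1:21997241-21997671, −log10 q of 4.94, 14 fragments). By −log10 q the NC interval exceeded 6.55% of its list and the KMT2D-KD interval 63.0%. This was the least unique of the 10 windows: 46.6% of its words of 31 bases occurred once in the genome, and 39.1% of those in the NC interval. In the 101 bases around the summit 7.04% did, with a median of 16 copies.

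PRSS1 (chr7:142749468-142753072) and PNLIP (chr10:116545931-116567855), the enzyme genes without an interval, encode cationic trypsinogen and pancreatic triglyceride lipase. The nearest interval to PRSS1 was 308858 bases away in NC and 510135 in KMT2D-KD, on opposite sides of the gene. The nearest to PNLIP was 201764 bases away in NC and 125161 in KMT2D-KD, both downstream. PNLIP lay in sequence of which 87.7% of words occurred once. For PRSS1, which sits beside the related trypsinogen gene PRSS2, the share was 78.8%, and within 1 kb of its 5′ end it was 87.5%.

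Of the factor genes, 2 of 3 had an interval in each list, and both lists held 5 intervals. PTF1A (chr10:23192312-23194245), which encodes the defining subunit of the PTF1 complex, had none. Its nearest was 118524 bases downstream in NC (fold 3.86) and 94836 bases upstream in KMT2D-KD (fold 4.75). Of the words of 31 bases in this window 95.3% occurred once in the genome, as did every one within 1 kb of the 5′ end.

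RBPJL (chr20:45306840-45317824), the RBPJ-like subunit of PTF1 in mature acinar cells, was the gene with fewer intervals in KMT2D-KD, 4 in NC against 3, but the length covered was 1.79 kb and 2.53 kb, and 2 separate NC intervals faced 1 longer interval. All of them lay downstream of the 5′ end, and in neither list was RBPJL the gene with the nearest 5′ end. The strongest in NC (chr20:45335934-45336465, fold 5.5, −log10 q of 6.23) and in KMT2D-KD (chr20:45336904-45337747, fold 7.84, −log10 q of 14.0, 25 fragments) lay in the body of SDC4, which encodes the widely expressed cell surface proteoglycan syndecan 4. The nearest lay 14279 bases from the 5′ end in NC (fold 4.41) and 14546 in KMT2D-KD (fold 4.71). Around the strongest NC summit 5.63% of words occurred once in the genome, and around the strongest KMT2D-KD summit 100%. For the nearest intervals it was 100% around the NC summit and 19.7% around the KMT2D-KD summit, the latter with a median of 740 copies.

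BHLHA15 (chr7:98211439-98215457) encodes MIST1, a factor of secretory cells. It had 1 interval in NC (chr7:98201116-98201388, fold 4.21, 11 fragments), 10051 bases upstream of the 5′ end in the body of LMTK2, a kinase gene, and this one was not found in KMT2D-KD. KMT2D-KD had 2 others in LMTK2, at 10787 bases (chr7:98200147-98200652, fold 3.62, −log10 q of 2.94) and 11581 bases (chr7:98199579-98199858, fold 3.35, −log10 q of 3.11). So the lists held nearby intervals here but none in common.

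**Figure D2:**
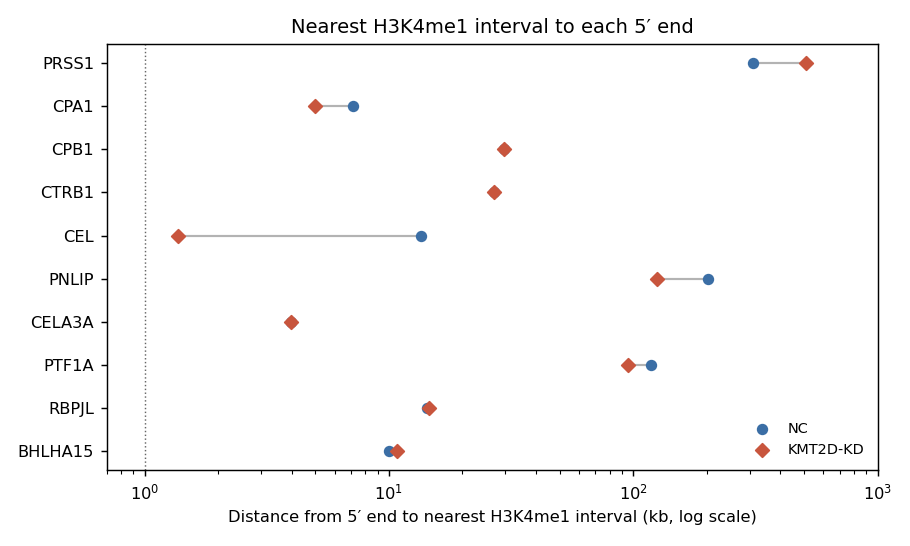
Distance in kb, on a log scale, from the 5′ end of each acinar gene to the nearest H3K4me1 interval in NC (circles) and KMT2D-KD (diamonds), with a dotted line at 1 kb. No point lies at or below 1 kb, PRSS1, PNLIP and PTF1A lie farthest to the right, and CEL has the widest gap between the lists, from 13.6 kb to 1.36 kb.

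Summed over the 10 windows, NC had 18 intervals and KMT2D-KD had 25, for a log2 ratio of 0.47 (−0.46 to 1.43). Genome-wide the lists held 64843 and 92135 intervals, for a log2 ratio of 0.51 (0.49 to 0.52). These ranges cover counting error within single libraries and not variation between libraries, so they are no test of the knockdown. When the KMT2D-KD list was shortened to its strongest 64843 intervals by −log10 q, the count near the acinar genes was 19 against 18 in NC, a log2 ratio of 0.08. CPA1 had 3 more intervals in KMT2D-KD, the most of any gene, and without it the counts were 14 and 18, a log2 ratio of 0.36.

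By gene, 4 of the 10 had more intervals in KMT2D-KD (CPA1, CPB1, CEL and BHLHA15), against 56.5% of all genes. RBPJL alone had fewer, against 10.3% of all genes. Single directions depended on the length of the lists. With lists of equal length CPB1 had 6 in NC and 3 in KMT2D-KD, the other way round, and CPA1, CEL and BHLHA15 still had more in KMT2D-KD. RBPJL turned as well, to 2 in NC and 3 in KMT2D-KD among intervals of −log10 q 5 or more, and to 16 and 17 with a flank of 50 kb. CTRB1 and CELA3A had 1 in each list, and 3 genes had none in either. Leaving out intervals in which under 75% of the words of 31 bases occurred once in the genome, a choice made after seeing the data, 2 genes had more in KMT2D-KD (CPA1 and CPB1), and CTRB1 and CELA3A had no interval left. The share over all genes was not counted for this choice. The median number of intervals per gene was 1 in NC and 1.5 in KMT2D-KD, against 1 and 2 over all genes. Per 100 kb of window the medians were 2.05 and 3.33, against 1.65 and 3.0 over all genes. The intervals covered 1.6% of the summed windows in NC and 2.69% in KMT2D-KD, against 1.42% and 2.32% over all genes. All 7 genes with an interval had more bases covered in KMT2D-KD, as had 85.0% of the 12088 genes with an interval in both lists and 65.4% of all genes.

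**Figure D3:**
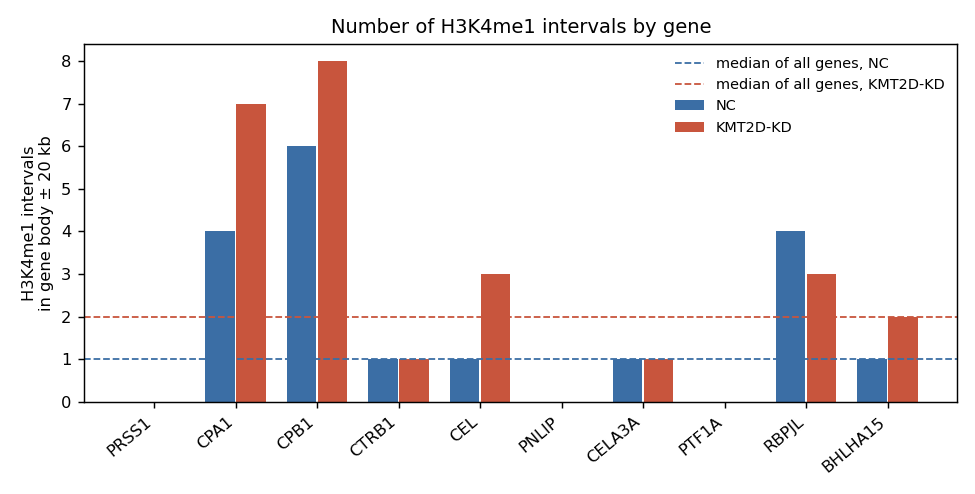
Number of H3K4me1 intervals in the gene body and 20 kb to either side for each acinar gene, in NC (blue bars) and KMT2D-KD (red bars), 1 library each. Dashed lines mark the medians of all protein-coding genes, 1 in NC and 2 in KMT2D-KD; CPB1 and CPA1 stand highest in KMT2D-KD with 8 and 7 intervals, against 6 and 4 in NC, and RBPJL is the gene with the lower bar in KMT2D-KD.

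Places with an interval in both lists were compared by the fold at the summit of each interval, although the summits need not be at the same base. At RBPJL an NC summit at chr20:45322312 (fold 2.75) was set against a KMT2D-KD summit at chr20:45321524 (fold 4.71). Of the 18 NC intervals 16 overlapped a KMT2D-KD interval, and of the 25 KMT2D-KD intervals 14 overlapped an NC interval. Genome-wide, 45195 of the 64843 NC intervals overlapped a KMT2D-KD interval. The like share of the whole KMT2D-KD list was not counted, so the 14 of 25 stand without a background. At 15 of the 16 places near acinar genes the fold enrichment was higher in KMT2D-KD, and at 14 by at least 0.05 on the log2 scale. The median log2 ratio of the folds was 0.48 (range −0.09 to 0.87), and the median fold was 4.22 in NC and 5.07 in KMT2D-KD. Over all 45195 shared places the fold was higher in KMT2D-KD at 68.3%, with a median log2 ratio of 0.21 and median folds of 4.29 and 4.93. The place with the lower fold in KMT2D-KD lay in the CPB1 body, upstream of its MANE Select transcript, 3.76 in NC against 3.53. At CPB1 and at RBPJL a pair of NC intervals was set against the same KMT2D-KD interval, so the 16 places were not all separate. Fold enrichment depends on the background of each library, and with 1 library per condition the knockdown and the library cannot be told apart.

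**Figure D4:**
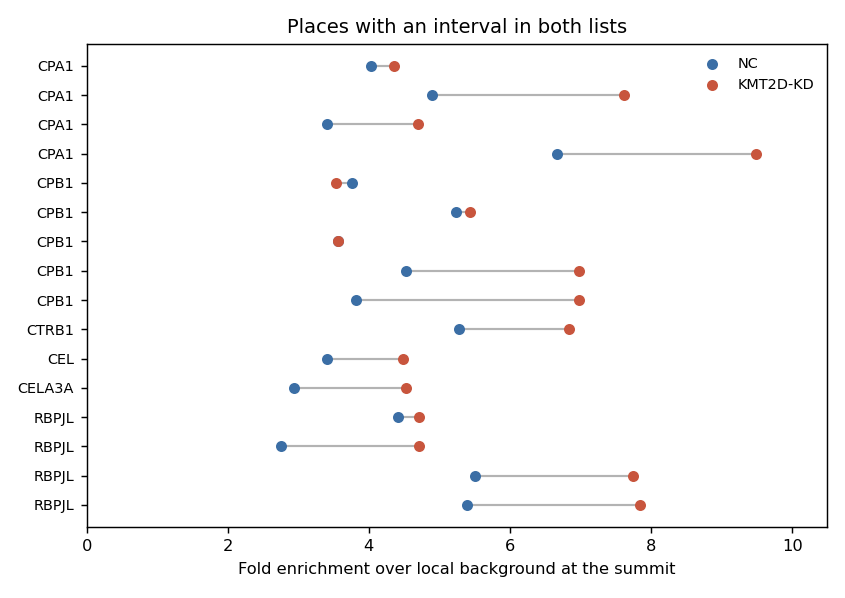
Fold enrichment over local background at the summit of each interval, without units, for the 16 places near acinar genes with an H3K4me1 interval in both lists. Blue points are NC and red points KMT2D-KD, 1 line for each place. The red point lies to the right at 14 places, and at 1 CPB1 place both points stand at 3.56. The widest shift in fold is at CPB1, from 3.82 to 6.98.

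The strength of the acinar gene intervals was close to that of the lists they came from. Their median fold was 4.12 in NC (2.75 to 6.67) and 4.35 in KMT2D-KD (2.58 to 9.49), against 4.16 and 4.17 for all intervals. Their median −log10 q was 3.49 in NC and 4.52 in KMT2D-KD, against 3.52 and 4.02, and their median width in bases was 426 and 469, against 369 and 375. At a −log10 q of at least 5, 6 intervals at 4 genes were left in NC and 11 intervals at 5 genes in KMT2D-KD. By nearest 5′ end, 8 of 18 intervals in NC and 14 of 25 in KMT2D-KD belonged to the acinar gene and the rest to a neighbour.

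A longer list of acinar genes was counted in the same way. Of 22 further genes of acinar cells, 11 (50%, exact 95% interval 28.2 to 71.8%) had an interval in each list, with a median of 0.5 in NC and 1 in KMT2D-KD, and 2 in NC and 3 in KMT2D-KD had one within 1000 bases of the 5′ end. Those with none in NC were the protease genes PRSS2 and CTRB2, the lipase-related genes PNLIPRP1, PNLIPRP2, CLPS (colipase) and PLA2G1B, the amylase genes AMY2A and AMY2B, REG1A and REG1B, and the zymogen granule membrane gene GP2. Of these, CLPS had 2 in KMT2D-KD and the others none. Among those with the most, the chymotrypsin C gene CTRC had 8 in NC and 14 in KMT2D-KD. CELA2A, CELA2B and CELA3B had 6 each in NC, and 11, 12 and 8 in KMT2D-KD. Several of these windows overlap each other or those of the 10 genes, as for CELA3B with CELA3A and CTRB2 with CTRB1, so they are not independent.

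The ductal side of the label was checked with 12 ductal and epithelial genes. All 12 (100%, 73.5 to 100%) had an interval in both lists, with medians of 6.5 (NC) and 8.5 (KMT2D-KD) and intervals covering 7.12% and 11.2% of their summed windows. The keratin genes KRT8 (30 in NC, 29 in KMT2D-KD), KRT7 (26 and 22) and KRT18 (16 and 18, in a window that overlaps that of KRT8) had the most. KRT19, the ductal keratin, had 4 and 5. Of 12 islet endocrine genes, 5 (41.7%, 15.2 to 72.3%) had an interval in NC and 7 (58.3%, 27.7 to 84.8%) in KMT2D-KD. INS, GCG, IAPP, CHGA, NEUROD1 and ABCC8 were among those with none in NC, and PCSK1 (7 and 9), SST (4 and 6) and PPY (4 and 4) had the most. By share of genes the acinar set overlapped every other set within the counting intervals in NC. Genes are not replicates, and no test between sets was made.

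**Figure D5:**
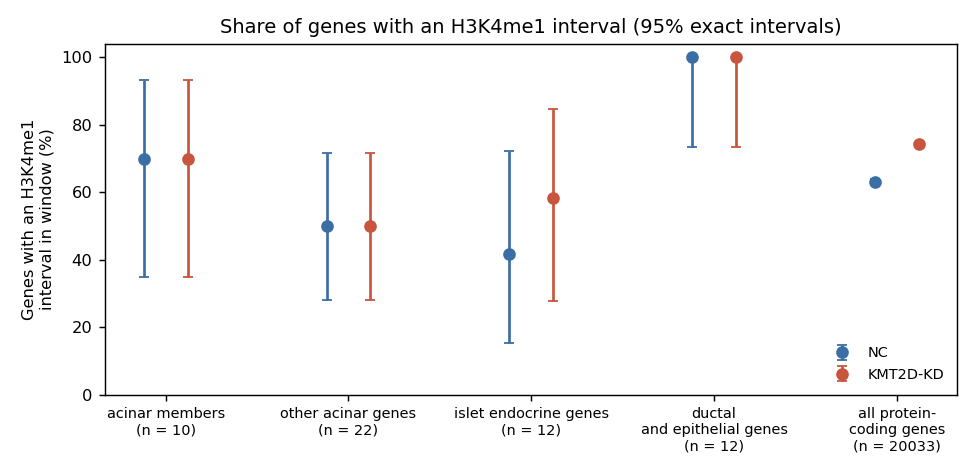
Share of genes in percent with at least 1 H3K4me1 interval in their window, in NC (blue) and KMT2D-KD (red), for the 10 acinar genes, 22 other acinar genes, 12 islet endocrine genes, 12 ductal and epithelial genes and all 20033 protein-coding genes. Bars are exact 95% intervals for counting error; the ductal and epithelial genes stand at 100%, and the acinar genes at 70.0% in both lists.

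No KMT2D or EBF2 interval lay in any of the 10 windows, and few gene windows anywhere held one. Of all gene windows, 0.734% in NC and 0.928% in KMT2D-KD held a KMT2D interval, and 0.784% and 0.978% an EBF2 interval. The KMT2D lists were 238 (NC) and 318 (KMT2D-KD) intervals long, and the EBF2 lists 293 and 311. With 0 found, up to 1.26%, 0.943%, 1.02% and 0.965% of these lists, in that order, could lie near such genes. The nearest KMT2D or EBF2 interval to any of the 10 genes was 0.321 Mb from CEL, and it was so in all 4 lists. At lists this short, a count of 0 in 10 windows does not show whether KMT2D or EBF2 was bound near the acinar genes.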

How the data were processed

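ChIP-seq of SW1990 cells was analysed from the peak lists of 6 libraries; the input library had no list here. Per the study's methods the authors removed adapter, undetermined and low-quality reads and aligned the rest with bwa. The submitters' processing notes name BWA, MACS2, HOMER and hg38, without versions. Caller settings and the handling of duplicate and multiply mapped reads were not given in the sources used here. Each list was made from 1 library, with no pooling stated. For each interval the authors deposited a fold enrichment at the summit, which is a ratio, a −log10 p-value, a −log10 q-value, a score (10 times the −log10 q, cut to a whole number), which was not used further, and the offset of the summit. The largest q-value was 0.0497 in NC and 0.0498 in KMT2D-KD for H3K4me1. No interval ran past the end of an hg38 chromosome.

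The members and gene lists were chosen with earlier results of these data known. Windows were the GENCODE release 44 gene body plus 20 kb either side. An interval counted with at least 1 base inside, and any overlap between the lists counted as shared. The background was the same count over 20033 protein-coding genes. Shares carry exact (Clopper-Pearson) 95% intervals, and a count of 0 a limit of 3 counts of the total. No p-value was computed, and titles and genotype labels gave the groups. Fragments were recovered by taking the fold as (fragments + 1) / (background + 1) and the p-value as the Poisson tail, without a rerun of the caller. Uniqueness was the share of 31-base words that occur once in hg38, both strands counted. All 10 genes are named, with the nearest and the strongest interval of each list. Of each context list the genes with no NC interval and those with the 3 highest NC counts are named, apart from a part of these lists that is not reported here. KRT19 and the further intervals of CPA1, CEL and BHLHA15 were added after their values were seen. Alternatives were other flanks, a stricter q, lists of equal length, midpoint counting, merging, leaving out intervals in neighbouring genes, other transcript starts and, added later, the MANE Select body and a uniqueness minimum. Counting was tested on simulated intervals. Python 3.11.15, pandas 2.3.3, numpy 2.4.6, scipy 1.17.1 and matplotlib 3.10.9 were used.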

Additional observations from a re-analysis of the deposited data

How the results depend on the processing

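Of 76 recomputed values of the counts, log2 ratios, covered lengths and distances, 51 stayed close to the reported ones and 25 moved. No sum over the genes changed its direction between NC and KMT2D-KD. Counts, lengths and distances were called close within a set factor of the reported value. A log2 ratio was called close anywhere in its counting range of −0.46 to 1.43, so it could hardly move. At single genes the direction turned at CPB1 with lists of equal length (6 and 3), and at RBPJL at the stricter q (2 and 3) and with the widest flank (16 and 17). A flank of 5 kb left intervals at 4 genes in NC (50.7% of all genes) and at 5 in KMT2D-KD (63.0%), with 8 and 11 intervals covering 2.61 and 4.25 kb. A flank of 50 kb gave 57 and 79 intervals covering 32.8 and 50.2 kb, at 7 genes in each list (75.8% and 84.5% of all genes), and all 7 had more in KMT2D-KD. With only intervals of −log10 q 5 or more there were 6 and 11 intervals covering 2.94 and 9.75 kb, at 4 genes in NC (30.5% of all genes) and 5 in KMT2D-KD (46.5%). Without intervals in another protein-coding gene, 4 genes in NC (49.2% of all genes) and 4 in KMT2D-KD (60.6%) kept one. They had 9 and 13 intervals covering 4.02 and 7.01 kb. Leaving out the 4 NC and 8 KMT2D-KD intervals of low uniqueness, an alternative added after seeing the data, left 14 and 17 intervals at 5 genes in each list, with more in KMT2D-KD at 2 genes. Uniqueness was computed for intervals near the acinar genes only, so these counts have no share over all genes beside them. The median distance from the 5′ end to the nearest interval, 20600 bases in NC and 20700 in KMT2D-KD, was 11800 and 8120 bases from the nearest start of any transcript, and 59600 and 30900 bases at a −log10 q of at least 5. Drawing windows around the MANE Select transcript, also added after seeing the data, removed the interval of CTRB1 and left 6 genes in each list. The share over all genes was not counted for such windows. The log2 ratio of interval numbers ranged from 0.08, with lists of equal length, to 0.87, at a −log10 q of at least 5. Of 180 recomputed counts at single genes 58 moved, 14 up and 44 down. No paired analysis was possible because each group was 1 library and the labels give no replicate numbers. With 8 to 25 fragments at the summit of each interval, depth limits what the lists can hold, and a missing interval was not shown to be a missing mark.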
